A study of Mus musculus with 6 samples.

Results

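The 10 genes described here encode the teneurins (Tenm1 to Tenm4), the latrophilins (Adgrl1 to Adgrl3) and the FLRT proteins (Flrt1 to Flrt3). They were found by gene name among the 22386 genes of the deposited count table. They were followed in MC38 cells, a mouse colorectal cancer cell line, with a hairpin construct that targets Acsl4 (shACSL4, 3 libraries) or with a control hairpin (shControl, 3 libraries). Acsl4 encodes an enzyme that joins long polyunsaturated fatty acids to coenzyme A. The labels call the shACSL4 cells knockdowns and the shControl cells wild type, whereas the series text speaks of knockouts. The cells were grown in culture, and the libraries were made from ribosome-depleted total RNA with random priming. Nothing states whether the replicates were separate cultures or whether the cells came from clones, so p-values measure only the spread between these libraries. The genes were selected on results of this same comparison, the rise of Tenm2 among them. Their levels and fold changes are therefore a description, and no p-value is given for them.

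Teneurins are large cell-surface proteins with a long extracellular part, and they bind across the gap between cells to latrophilins, which are adhesion G protein-coupled receptors. FLRT proteins carry leucine-rich repeats, bind latrophilins at another domain, and also bind UNC5 receptors and the FGF receptor Fgfr1. The system is best known from neurons, where these contacts take part in axon guidance and in the choice of synaptic partners.

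Library totals lay between 40911698 and 47127672 counts. A count of 0 in a library allowed a level of up to 0.0637 to 0.0733 CPM (read counts scaled to library size), which covers counting error only. shControl library 3 stood apart from the other controls: the chi-square per degree of freedom between replicates was 36.2 and 40.4 for the pairs that hold it, against 5.99 for shControl 1 and 2, and it was 11.7 to 19.9 among shACSL4 libraries. Acsl4, the targeted gene, was at 132, 128 and 127 CPM in the shACSL4 libraries and at 191, 194 and 204 CPM in the shControl libraries, a fall to 0.656 of the control level (adjusted p = 3.84e-06, edgeR's quasi-likelihood test). Markers of colorectal epithelium were low for cells so labelled. Krt18, Krt19 and Cdh1 stayed at 0 to 0.095 CPM in every library, and the 10 markers with a row in the table summed to 3.45 to 4.76 CPM in shACSL4 and 1.69 to 2.3 CPM in shControl libraries. Of the 3 that were tested, Krt20 rose to 1.69 ± 0.402 CPM in shACSL4, against 0.94 ± 0.136 CPM in shControl (SD, n = 3; adjusted p = 0.0361, edgeR), and Krt8 did not pass. Lgr5, at 0.934 ± 0.164 CPM in shACSL4 and 0.0641 ± 0.0267 CPM in shControl, was called higher but entered the test through the shACSL4 libraries alone.

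Of the 10 genes, 8 had enough counts to be tested, all but Tenm1 and Flrt1. Tenm2, Tenm3 and Flrt2 rose and Tenm4 and Adgrl3 fell, at an adjusted p under 0.05 in a fit over all 14289 tested genes. In that fit 29.1% of all genes passed, 15.4% as higher and 13.6% as lower. The median log2 fold change was -0.04 over the 8 tested members and -0.01 over all tested genes. The groups did not overlap for 5 of the 8 members, 3 of them above and 2 below, and they did not overlap for 42.8% of all tested genes. Since the genes were chosen from this comparison, nothing is read from these counts. Levels of different genes are compared in the authors' FPKM (fragments scaled for gene length and library size), and groups are compared in TMM-scaled CPM.

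**Figure D1:**
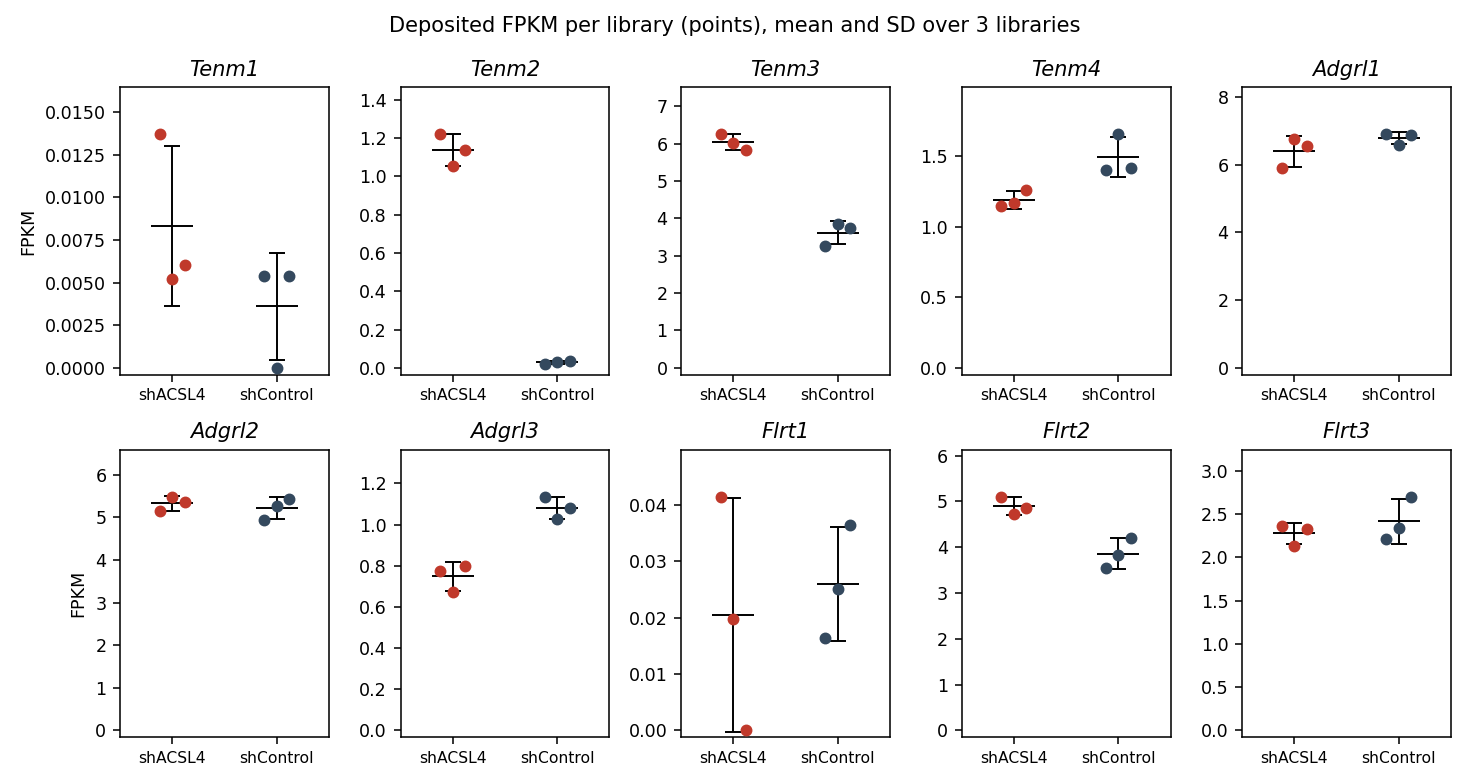
Deposited FPKM of each member in each library (points), shACSL4 at the left and shControl at the right of each panel, with the mean and SD over 3 libraries as bars and a linear axis for each gene. Tenm2 lies at 1.06 to 1.22 FPKM in shACSL4 and at 0.0208 to 0.0352 FPKM in shControl libraries, and Tenm3, Flrt2, Tenm4 and Adgrl3 also show no overlap between the groups.

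The teneurins, which act as the ligands of the system, moved in different directions. RefSeq promoter sequences of 3 of them (GRCm38.p6, 250 bases before to 50 after the transcription start) are shown because these paralogs differed: Tenm2 and Tenm3 rose and Tenm4 fell. Capitals mark CpG dinucleotides, and each sequence reads 5′ to 3′ on the strand of the gene.
Tenm2 (chr11:36944192-36944491, minus strand): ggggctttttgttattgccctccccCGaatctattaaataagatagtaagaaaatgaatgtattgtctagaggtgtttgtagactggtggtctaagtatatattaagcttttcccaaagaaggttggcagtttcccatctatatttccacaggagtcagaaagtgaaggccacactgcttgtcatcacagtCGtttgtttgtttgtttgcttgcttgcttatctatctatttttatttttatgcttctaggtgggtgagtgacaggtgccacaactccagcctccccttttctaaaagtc
Tenm3 (chr8:48674641-48674940, minus strand): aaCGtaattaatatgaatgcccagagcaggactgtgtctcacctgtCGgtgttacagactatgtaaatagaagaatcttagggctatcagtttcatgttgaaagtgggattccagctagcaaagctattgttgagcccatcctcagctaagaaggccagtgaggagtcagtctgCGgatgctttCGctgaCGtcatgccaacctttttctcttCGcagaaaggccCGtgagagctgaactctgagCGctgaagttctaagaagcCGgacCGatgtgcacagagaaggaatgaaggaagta
Tenm4, the outer of its 2 entries (chr7:96170994-96171293, plus strand): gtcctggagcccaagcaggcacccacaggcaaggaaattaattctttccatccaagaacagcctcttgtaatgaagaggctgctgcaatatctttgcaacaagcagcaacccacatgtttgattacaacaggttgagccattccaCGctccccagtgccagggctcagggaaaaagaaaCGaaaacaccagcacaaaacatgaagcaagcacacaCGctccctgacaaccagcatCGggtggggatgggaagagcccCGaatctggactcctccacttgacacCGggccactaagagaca
The Tenm2 window held 2 CpGs, the Tenm3 window 10 and the Tenm4 window 6, and the median over 32841 promoters of the same length was 7. None of the 3 windows contained TGANTCA (the core of an AP-1 site), TATAAA or GGGCGG on either strand. The interferon-stimulated response element core (GAAA, any 2 bases, then GAAA) was present once in the Tenm4 window and in 3.44% of all promoters, and the STAT core TTCNNNGAA was present at 2 places in the Tenm3 window and in 8.3% of all promoters. The motifs can overlap each other, and a match is a description of letters alone. The RefSeq starts are not the only ones: in the GENCODE M21 annotation, on the same build, the outermost coding transcript started 291.6 kb further upstream for Tenm2 and 169.3 kb further upstream for Tenm3. Gene counts do not say which start was used. Promoter sequences were matched for 9 of the 10 members.

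Tenm2 (ENSMUSG00000049336, GRCm39 chromosome 11, 35897483 to 37126791, minus strand) had the largest fold change of the 8 tested members. It held 576, 520 and 614 counts in shACSL4 libraries 1 to 3, and 10, 14 and 17 counts in shControl libraries 1 to 3. In CPM it stood at 13.9, 12.1 and 13.0 in shACSL4, against 0.238, 0.343 and 0.412 in shControl. Every control library held some reads of the gene, and the lowest shACSL4 library was far above the highest control. The log2 fold change was 5.29 (SE 0.187). The authors' deposited table gives 5.3 for it and marks Tenm2 as its only up-regulated member of the 10, with 0 marked down.

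Tenm3 (ENSMUSG00000031561, chromosome 8, 48680717 to 49296986, minus strand) encodes a teneurin known in mice for the wiring of the visual system and the hippocampus. It stood at 63.6, 61.5 and 59.5 CPM in shACSL4 and at 33.2, 39.5 and 39.0 CPM in shControl libraries. All shACSL4 values lay above all shControl values, with a log2 fold change of 0.73 (SE 0.0744). On the length-corrected scale its gain exceeded that of Tenm2: shACSL4 minus shControl was 2.41 FPKM for Tenm3 and 1.11 FPKM for Tenm2.

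Tenm4 (ENSMUSG00000048078, chromosome 7, 95820453 to 96560300, plus strand), known in mice for a role in myelination, fell. Its levels were 23.9, 24.5 and 26.5 CPM in shACSL4 and 29.3, 34.9 and 30.4 CPM in shControl libraries. The groups did not overlap, and the log2 fold change was -0.33 (SE 0.0844). It no longer passed the threshold without shACSL4 1 (log2 fold change -0.30) or without shControl 2 (-0.26). Tenm1 (ENSMUSG00000016150, chromosome X) had 10, 4 and 5 counts in shACSL4 and 4, 0 and 4 counts in shControl libraries, too few to test.

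The summed teneurin level was 8.63, 8.23 and 8.24 FPKM in shACSL4 and 4.69, 5.54 and 5.2 FPKM in shControl libraries. Tenm3 made up 72.1% ± 1.13 of that sum in shACSL4 and 70.3% ± 1.38 in shControl (SD, n = 3). Tenm2 and Tenm4 held different shares of the rest. Tenm2 made up 13.6% ± 0.68 of the sum in shACSL4 and 0.553% ± 0.117 in shControl, and Tenm4 made up 14.3% ± 1.05 in shACSL4 and 29% ± 1.52 in shControl. In shACSL4 libraries the FPKM ranges of Tenm4 (1.15 to 1.26) and Tenm2 (1.06 to 1.22) overlapped, whereas in shControl libraries Tenm4 (1.4 to 1.66) lay well above Tenm2.

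**Figure D2:**
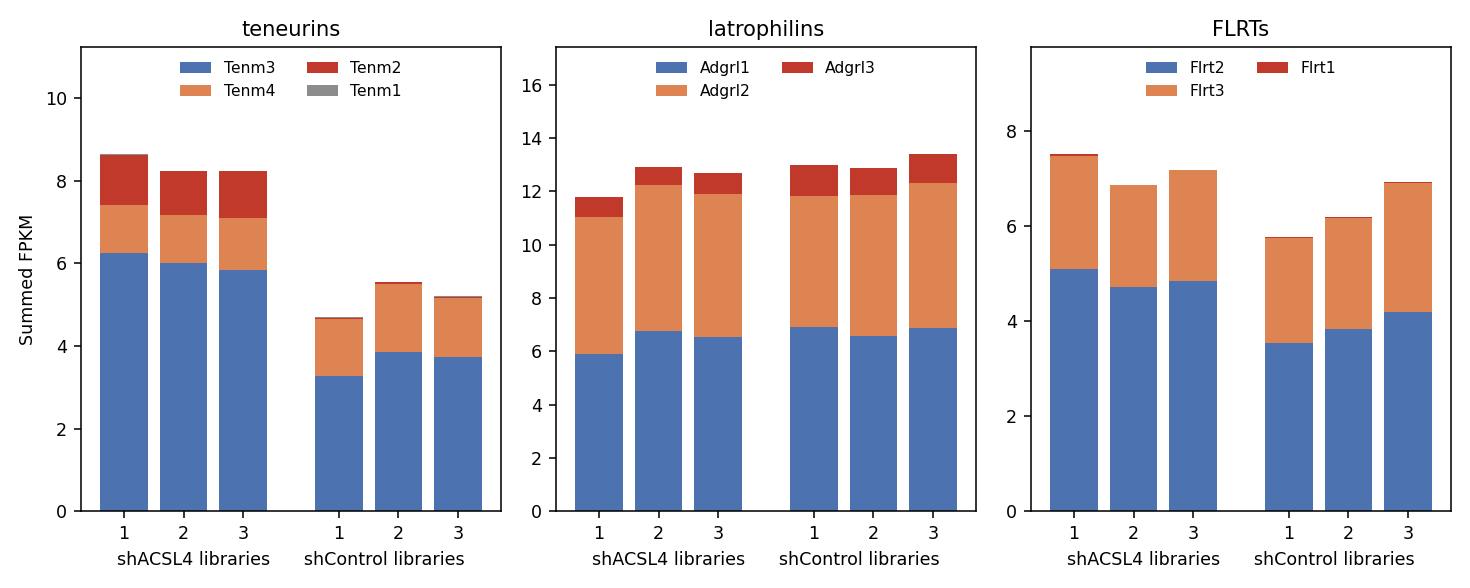
Summed FPKM of teneurins, latrophilins and FLRTs in each library, with shACSL4 libraries 1 to 3 left of shControl libraries 1 to 3 and the members stacked in colours. The teneurin sum is 8.23 to 8.63 FPKM in shACSL4 and 4.69 to 5.54 FPKM in shControl libraries, and the Tenm2 layer is thick in the shACSL4 bars and barely visible in the shControl bars.

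The latrophilins, the receptors, summed to more FPKM than the teneurins in every library. Adgrl1 (ENSMUSG00000013033, chromosome 8), which encodes a receptor of the spider toxin alpha-latrotoxin, stood at 5.89, 6.75 and 6.54 FPKM in shACSL4 and 6.9, 6.58 and 6.87 FPKM in shControl libraries. It was the highest member by mean in both groups, with a log2 fold change of -0.10 (SE 0.0667) that did not pass the threshold. Adgrl2 (ENSMUSG00000028184, chromosome 3) stood at 5.14, 5.48 and 5.36 FPKM in shACSL4 and 4.94, 5.27 and 5.43 FPKM in shControl libraries, and its log2 fold change of 0.02 (SE 0.0613) did not pass either. The groups overlapped for both genes.

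Adgrl3 (ENSMUSG00000037605, chromosome 5, 81167985 to 81972980, plus strand), in humans a gene studied in attention deficit disorder, was the latrophilin that fell. It was at 13.7, 11.9 and 14.1 CPM in shACSL4 and at 20.0, 18.3 and 19.5 CPM in shControl libraries. Every shACSL4 library lay below every control, with a log2 fold change of -0.54 (SE 0.0959). Adgrl3 was also the lowest latrophilin in both groups, at 0.749 ± 0.069 FPKM in shACSL4 and 1.08 ± 0.0536 FPKM in shControl (SD, n = 3). The latrophilin sum was 12.5 ± 0.584 FPKM in shACSL4 and 13.1 ± 0.267 FPKM in shControl (SD, n = 3).

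Among the FLRT genes, Flrt2 (ENSMUSG00000047414, chromosome 12, 95659000 to 95751989, plus strand), whose protein repels Unc5d-bearing axons and cells in mice, rose. It was at 39.1, 36.5 and 37.4 CPM in shACSL4 and at 27.2, 29.7 and 33.1 CPM in shControl libraries. The groups did not overlap, and the log2 fold change was 0.33 (SE 0.0799). Flrt3 (ENSMUSG00000051379, chromosome 2) was at 11.4, 10.4 and 11.3 CPM in shACSL4 and at 10.7, 11.4 and 13.4 CPM in shControl libraries, with a log2 fold change of -0.10 (SE 0.112) that did not pass. Flrt1 (ENSMUSG00000047787, chromosome 19) had 10, 5 and 0 counts in shACSL4 and 4, 6 and 9 counts in shControl libraries and was not tested. Flrt2 made up 68.1% ± 0.564 of the FLRT sum in shACSL4 and 61.3% ± 0.698 in shControl (SD, n = 3).

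Ordered by median FPKM in shACSL4 libraries, the members ran Adgrl1, Tenm3, Adgrl2, Flrt2, Flrt3, Tenm4, Tenm2, Adgrl3, Flrt1 and Tenm1. In shControl libraries they ran Adgrl1, Adgrl2, Flrt2, Tenm3, Flrt3, Tenm4, Adgrl3, Tenm2, Flrt1 and Tenm1. Neighbours whose ranges overlapped were Adgrl1 with Tenm3, Tenm4 with Tenm2, and Flrt1 with Tenm1 in shACSL4, and Flrt2 with Tenm3 and Tenm2 with Flrt1 in shControl. These orders rest on the gene lengths behind the authors' FPKM, whose definition is not given. The counts and library totals imply lengths between 4.87 kb for Flrt3 and 21 kb for Tenm4.

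The binding partners of these proteins were described from a list of 19 genes, of which 16 were tested. This list, and the lists of other adhesion receptors and other synaptic adhesion genes, were chosen with earlier results of these data known. Their counts and p-values are therefore a description. Of these, 6 were higher and 3 lower in shACSL4, with a median log2 fold change of 0.10, beside -0.01 and 29.1% over all tested genes. Of the 6 higher genes, 4 passed the filter on low counts only through the shACSL4 libraries, so those had to differ to be tested at all. Shank1 and Cntn6 were among them.

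Receptors of the FLRT proteins differed among themselves. Unc5a, which encodes a netrin receptor that also binds FLRTs, was at 17.2, 21.5 and 18.6 CPM in shACSL4 and at 5.77, 6.44 and 7.99 CPM in shControl libraries. It rose 2.84-fold without overlap of the groups (adjusted p = 5.03e-06, edgeR). Unc5d, the receptor for which Flrt2 is best known, was at 2.75, 3.54 and 2.5 CPM in shACSL4 and at 3.35, 5.07 and 4.94 CPM in shControl libraries. It fell, with a log2 fold change of -0.60 and an adjusted p = 0.0395 by edgeR, but its groups overlapped, and the call was lost without shACSL4 1 (adjusted p = 0.119), shACSL4 3 (0.148), shControl 2 (0.138) or shControl 3 (0.062), with limma-voom (0.0592) and with limma on log2(FPKM + 0.1) (0.11) or log2(FPKM + 1) (0.0968). Unc5b stood at 4.92 ± 0.182 CPM in shACSL4 and 5.51 ± 0.431 CPM in shControl (SD, n = 3; adjusted p = 0.39, edgeR). Unc5c had 2, 8 and 0 counts in shACSL4 and 0, 2 and 0 counts in shControl libraries and was not tested.

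Fgfr1, the FGF receptor that FLRTs bind, fell to 128 ± 8.14 CPM in shACSL4, against 172 ± 10.8 CPM in shControl (log2 fold change -0.43, adjusted p = 2.91e-04, edgeR). Robo1, an axon guidance receptor that binds Flrt3, rose to 108 ± 3.33 CPM in shACSL4, against 86.4 ± 6.96 CPM in shControl (0.32, adjusted p = 0.00272). Dag1, which encodes dystroglycan, was at 307 ± 5.73 CPM in shACSL4 and 283 ± 15.4 CPM in shControl (0.12, adjusted p = 0.133). It passed as higher in 1 of 16 alternatives, without shControl 3, the library that stood apart (0.16, adjusted p = 0.0151). Calls over all genes also rose in that run, to 2818 higher and 2659 lower, against 2205 and 1950 in the main fit.

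Scaffold and synaptic partners of the latrophilins were mostly scarce. Shank1, a postsynaptic scaffold gene, was at 1.67, 2.26 and 1.82 CPM in shACSL4 and at 0.285, 0.0489 and 0.121 CPM in shControl libraries, with a log2 fold change of 3.62 (SE 0.442) and no overlap of the groups. Since Shank1 entered the test through the shACSL4 libraries alone, its values are a description. Its paralog Shank3 fell (log2 fold change -0.32, adjusted p = 0.00444) to 26 ± 0.192 CPM in shACSL4, against 32.4 ± 1.48 CPM in shControl. Cntn6, a contactin gene that entered in the same way, had 12, 19 and 29 counts in shACSL4 and 3, 2 and 7 counts in shControl libraries. Shank1, Shank3 and Cntn6 were named for a small adjusted p in this list. The paralog Shank2 did not pass (log2 fold change 0.19, adjusted p = 0.407, edgeR), at 9.76 ± 1.99 CPM in shACSL4 and 8.6 ± 1.28 CPM in shControl. The number of higher partners was 3 with the stricter filter, which asks for 1 CPM in 3 libraries.

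**Figure D3:**
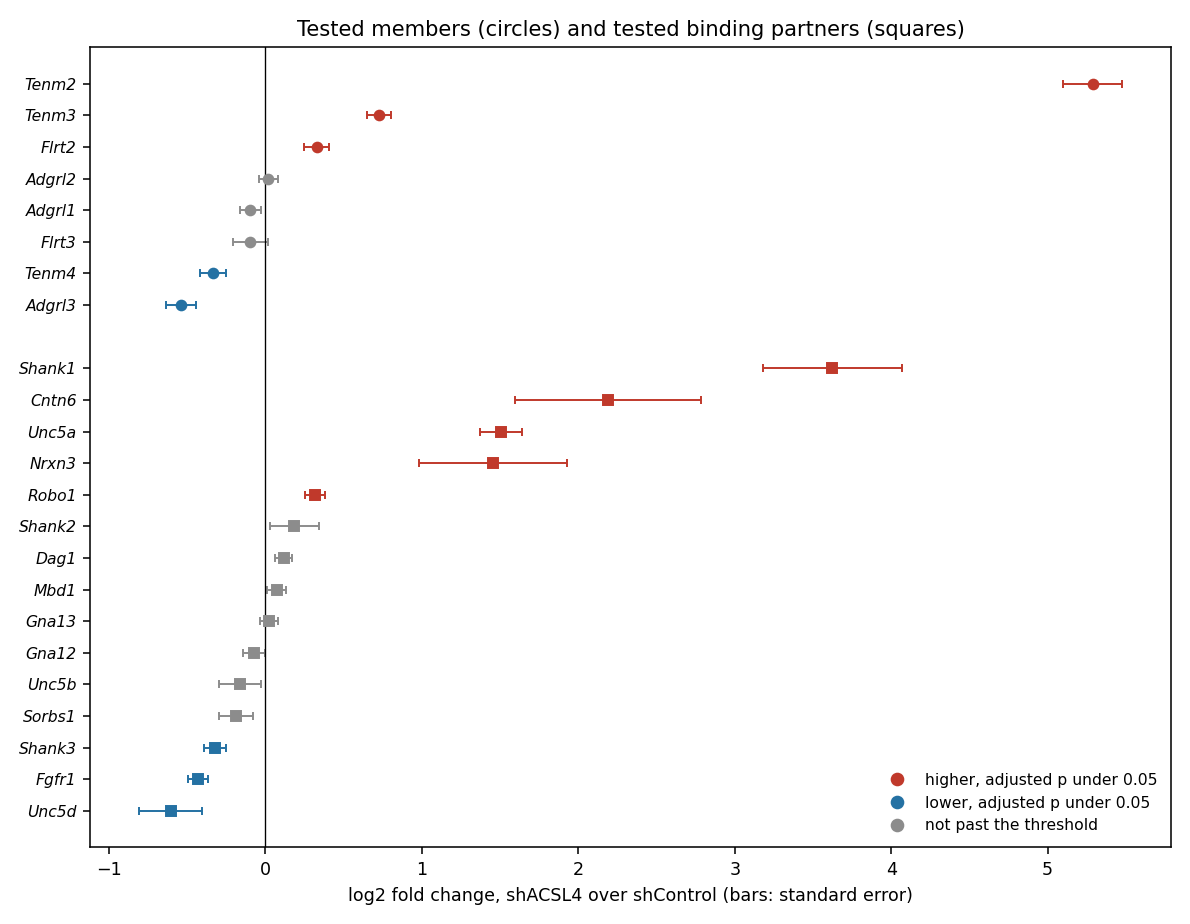
Log2 fold change of shACSL4 over shControl with its standard error for the 8 tested members (circles) and for tested binding partners (squares), red where higher and blue where lower at an adjusted p under 0.05. Tenm2 stands at 5.29, the other members lie between -0.54 and 0.73, and the partners run from -0.60 for Unc5d to 3.62 for Shank1.

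The rest of the adhesion receptor family to which latrophilins belong gave 4 higher and 1 lower of 11 tested genes, out of 27 listed, with a median of 0.32, beside 15.4% higher and 13.6% lower over all tested genes. The lower gene was Adgrg6, a receptor needed for myelination by Schwann cells, which fell to 94.5 ± 7.15 CPM in shACSL4, against 174.5 ± 16.1 CPM in shControl (log2 fold change -0.88, SE 0.075, adjusted p = 4.33e-06, edgeR). Higher genes were Adgra1 (log2 fold change 1.27, adjusted p = 1.77e-04), Adgrb1 (1.92, adjusted p = 0.00145), Adgra2 (0.32, adjusted p = 0.005) and Adgrd1, the last of which passed the filter through shACSL4 libraries alone. The genes given with a p-value had the smallest adjusted p of this list, so these p-values are a description.

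Other synaptic adhesion genes, a list of 41 of which 19 were tested, held 7 higher and 0 lower genes by edgeR, with a median of 0.34, beside 15.4% higher and 13.6% lower over all tested genes. DESeq2 and limma-voom also called 0 lower in this list, and 0 lower genes had an unadjusted p under 0.05 by edgeR. Cadm2, an immunoglobulin-type cell adhesion gene, rose to 14.7 ± 0.913 CPM in shACSL4, against 1.51 ± 0.131 CPM in shControl (log2 fold change 3.28, SE 0.133, adjusted p = 6.28e-09). Its paralog Cadm1 rose (log2 fold change 1.38, adjusted p = 4.08e-06), as did the leucine-rich repeat genes Lrrtm4 (1.39, adjusted p = 1.67e-05) and Lrfn3 (0.34, adjusted p = 5.87e-04). The named genes had the smallest adjusted p of this list, and their p-values are likewise a description.

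Markers of neurons, the cells in which the teneurin system is best known, were read beside these rises. Of 10 listed, 7 had a row and 3 were tested: the tubulin gene Tubb3 and the microtubule gene Map2 rose by 1.05 and 1.43 on the log2 scale, and the growth cone gene Gap43 fell by 2.71 (adjusted p = 7.22e-07, 4.71e-06 and 0.00104, edgeR). The neuron markers summed to 70.3 to 72 CPM in shACSL4 and 31.1 to 35.9 CPM in shControl libraries, nearly all of it Tubb3 and Map2. Snap25, Syt1, Syp and Stmn2 did not exceed 0.419 CPM in any library. Fibroblast markers summed to 1830 to 2143 CPM in shACSL4 and 1624 to 1704 CPM in shControl libraries. Of 7 tested genes 3 rose and 1 fell, beside 15.4% higher and 13.6% lower over all tested genes. Most of the sum came from genes that moved in different directions. Mean levels in shACSL4 and shControl were 1178 and 867 CPM for Col3a1, 264 and 122 CPM for Pdgfra, and 523 and 668 CPM for Dcn. Other markers of this list were scarce: Col1a1, Col1a2, Lum and Thy1 did not exceed 1.19 CPM in any library. Leukocyte markers summed to 9.37 to 9.74 CPM in shACSL4 and 5.92 to 7.65 CPM in shControl, and endothelial markers to 0.629 to 0.821 CPM in shACSL4 and 0.71 to 1.33 CPM in shControl libraries. Their part in the results on teneurins and FLRTs was not tested. In bulk RNA more cells with a gene on and more RNA per cell cannot be told apart.

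The genomic surroundings differed between the members. No other listed gene overlapped Tenm2, and the nearest tested gene, Wwc1, lay 26.1 kb past its 3′ end on the same strand (chromosome 11, 35729227 to 35871354). Wwc1, which encodes a scaffold protein of Hippo signalling, was at 0.748, 0.699 and 0.381 CPM in shACSL4 and at 3.21, 2.2 and 3.37 CPM in shControl libraries. It fell, with a log2 fold change of -2.27 ± 0.296 (SE, adjusted p = 1.14e-04, edgeR), so Tenm2 and its nearest tested neighbour Wwc1 changed in opposite directions. On the other side the nearest tested gene, Mat2b, was 3443 kb away (adjusted p = 0.827). Of the 3 tested genes within 1 Mb of Tenm2, 2 fell, Wwc1 among them, and the other did not pass. Within the same distance of Tenm3, 1 of 9 tested genes was higher (Gm19744) and 2 were lower, and around Tenm4 4 of 13 were lower, Nars2 among them. Over all tested genes 15.4% were higher and 13.6% lower.

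Tenm3 was overlapped at its 5′ end by the antisense lncRNA gene Gm19744 (chromosome 8, 49296512 to 49323573), with 20, 17 and 23 counts in shACSL4 and 9, 4 and 4 counts in shControl libraries. Its log2 fold change was 1.72 (SE 0.507), given as a description because the gene entered the test through the shACSL4 libraries alone. It passed the threshold by edgeR with all libraries, but not when any library other than shControl 1 was left out. Nor did it pass with limma on log2(FPKM + 0.1) or log2(FPKM + 1). No source used here states strandedness, and reads of Tenm3 and Gm19744 in the shared stretch cannot be told apart. Dctd, the nearest tested gene past the 3′ end, did not pass (adjusted p = 0.367), nor did Aga, 4668 kb away on the other side (0.0521), which passed as higher in 8 of 16 alternatives. Beside Tenm4, Nars2, 40.4 kb past its 3′ end, fell (log2 fold change -0.34, adjusted p = 0.0185), and its call was lost without shACSL4 3 (0.0964), shControl 1 (0.0703) or shControl 2 (0.0577). The Nars2 call was also lost with limma on log2(FPKM + 0.1) (0.0578) or log2(FPKM + 1) (0.0519). Prcp, 3237 kb away on the other side, fell (log2 fold change -0.26, adjusted p = 0.0112), and this call was lost without shACSL4 3 (0.0684). The lncRNA genes that overlap Tenm4 on the opposite strand, Gm15413, Gm15416, Gm44633 and C230038L03Rik, had 0 to 11 counts in each library.

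Flrt1 and Flrt3 lie inside the opposite-strand genes Macrod1 and Macrod2. Macrod1 rose (log2 fold change 0.60, adjusted p = 0.00963, edgeR) to 5.56 ± 0.167 CPM in shACSL4, against 3.67 ± 0.554 CPM in shControl, while Flrt1 inside it stayed at 0 to 10 counts. Macrod2 was at 7.24 ± 0.632 CPM in shACSL4 and 7.13 ± 0.164 CPM in shControl (adjusted p = 0.912), beside the overlapping groups of Flrt3. The remaining overlaps were Sh2d1a with Tenm1, Gm10644 with Adgrl1, Gm43573 with Adgrl2 and Gm16054 with Adgrl3, each too scarce to test. Flrt2 and Adgrl3 had 0 tested genes within 1 Mb. The nearest tested genes on either side of those members, Sel1l and Galc for Flrt2 and Polr2b and Epha5 for Adgrl3, did not pass (adjusted p of 0.103 to 0.61).

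**Figure D4:**
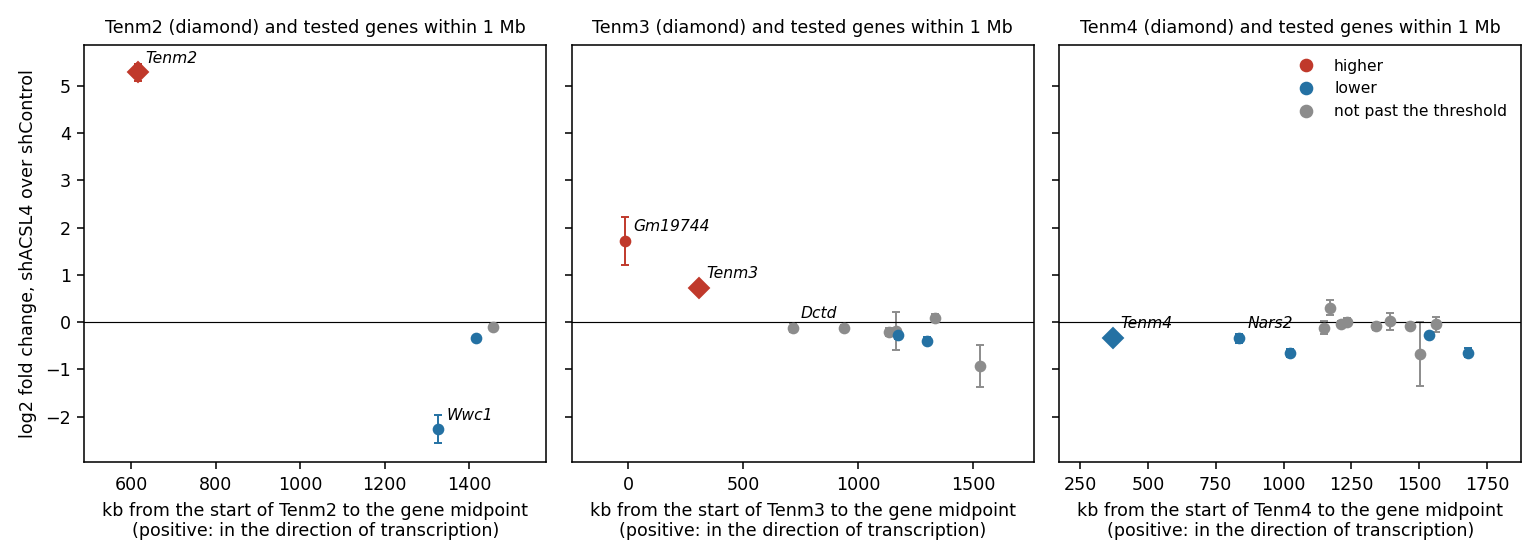
Log2 fold change with its standard error of Tenm2, Tenm3 and Tenm4 (diamonds) and of the tested genes within 1 Mb of each, placed by the distance in kb from the start of the teneurin gene to the midpoint of each gene, along the direction of transcription. Wwc1 lies at -2.27 beyond Tenm2 at 5.29, and Gm19744 lies at 1.72 near the start of Tenm3.

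The genes closest in pattern to each changed member were taken by the distance between their log2 levels, centred on the shControl mean, over the 6 libraries. For Tenm2 they were Hpse2 (distance 0.578), a heparanase-related gene, Oas1g (0.845), an oligoadenylate synthetase gene, and Stra6 (0.865), a retinol receptor gene. Hpse2 stood at 23.7 ± 0.805 CPM in shACSL4 and 1.18 ± 0.313 CPM in shControl (SD, n = 3), beside 13.0 ± 0.895 CPM in shACSL4 and 0.331 ± 0.0877 CPM in shControl for Tenm2. Oas1g stood at 22.6 ± 7.16 CPM in shACSL4 and 1.21 ± 0.443 CPM in shControl. For Tenm3 the closest were Hcn2 (0.12), Madd (0.127) and Gnptg (0.135), and for Flrt2 they were Tob1 (0.0798), Tor4a (0.0809) and Zbtb2 (0.0855). For Tenm4 they were Bard1 (0.0866), Zfp354c (0.108) and Prepl (0.122), and for Adgrl3 they were Intu (0.0962), Phlda2 (0.156) and Sh2b2 (0.158). These distances follow the group difference on log2(CPM + 0.5), which every gene of like shift on that scale shares. For Tenm2 the added 0.5 CPM exceeds the shControl mean, and the folds were not alike. They were 39 for Tenm2, 20 for Hpse2, 18.7 for Oas1g and 26.8 for Stra6. Stra6 entered the test through the shACSL4 libraries alone.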

How the data were processed

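RNA was measured by RNA sequencing of ribosome-depleted total RNA in 3 shACSL4 and 3 shControl libraries of MC38 cells. Reads were processed with CASAVA, HISAT2 and DESeq2 on GRCm39, per the submitters' processing notes. The counting tool, the annotation release and the strandedness are not given in the sources used here. The deposited table holds raw read counts per gene, FPKM set per library by the authors, and, per the file headers, a log2 fold change and p-values of the authors' own comparison, of which the log2 fold change and the direction mark are quoted.

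From the deposited counts, edgeR 4.0.16 in R 4.3.3 fitted robust quasi-likelihood models of shACSL4 over shControl with TMM scaling, after a filter (minimum count 10, minimum total 15) that left 14289 genes. Benjamini-Hochberg adjustment ran over all of them, with a threshold of 0.05, and SEs were derived from the log2 fold change and its F statistic. The procedure was tested on simulated data. The simulation gave every gene the same variability beyond counting error and held no outlying library, so it does not cover the spread between these libraries. Alternatives were DESeq2 1.42.0, limma 3.58.1 (voom, and log2 of FPKM plus 0.1 or 1), other scalings and filters, a restriction to protein-coding genes, a block for replicate number, and each library left out. Floors were set from the totals of 40911698 to 47127672 counts and cover counting error only. SDs and SEs also include the spread between libraries.

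The members and the gene lists were chosen with earlier results of these data known. Named were all members, Acsl4, the Unc5 genes, Fgfr1, Robo1 and Dag1, up to 4 more called genes of each list by adjusted p, genes that overlap a member or are its nearest tested neighbours (for changed members), and the 3 genes of mean 1 CPM or more closest in pattern, on log2(CPM + 0.5). A few other genes are named to complete short counts, as a paralog or as cell type markers. Promoters came from RefSeq on GRCm38.p6, whose coordinates are not those of the counts. The result of 1 binding partner is not reported here.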

Additional observations from a re-analysis of the deposited data

How the results depend on the processing

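Of 128 alternatives over the 8 tested members, 124 kept the side of the threshold, 4 lost the threshold and 0 reversed a called direction. All 4 concerned Tenm4, without shACSL4 1 (log2 fold change -0.30), without shControl 2 (-0.26), and with limma on log2(FPKM + 0.1) (-0.30) or log2(FPKM + 1) (-0.18). Lower members therefore numbered 1 under both FPKM fits and 1 to 2 over the left-out libraries, and higher members numbered 3 in every alternative run. All alternatives used libraries of the comparison on which the members were selected, so they do not test the calls independently. Adgrl1, Adgrl2 and Flrt3 did not pass in the main fit or in any of their 16 alternatives each, which count among the 124. Adgrl2 and Flrt3 changed sign in some alternatives. Their log2 fold changes ran from -0.028 to 0.063 for Adgrl2 and from -0.168 to 0.006 for Flrt3. Higher binding partners numbered 3 with the stricter filter, which tests fewer scarce genes, and 3 under each FPKM fit, whose pseudocounts shrink the change of scarce genes. Over all genes, lower calls ranged from 1252 (without shACSL4 3) to 2659 and higher calls from 1666 to 2818 as libraries were left out. Both maxima came without shControl 3, and the cause was not tested. Of 747 alternatives over 47 other named genes, 689 kept their call, 49 lost it, 9 gained it and 0 reversed. The median log2 fold change of all genes was -0.005 in the main fit, -0.004 with DESeq2 size factors and 0.005 with library size alone. It was 0.012 without a filter.

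With the replicate number as a block, 2616 genes were higher and 2547 lower, 3 members were higher and 2 lower, and lower adhesion receptors outside the latrophilins numbered 2. Deviations of same-numbered libraries correlated at 0.115, 0.0634 and 0.201, and those of other pairs at -0.204 to 0.130. The libraries shACSL4 2 and shACSL4 3 correlated best with the control of their own number, and shACSL4 1 with shControl 2 (0.130). These values do not settle whether the numbers pair libraries, and the main fit used no pairing. With 3 libraries a group no test for a single outlying library was made. Tenm1 and Flrt1 had 0 to 10 counts a library and were not tested.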
